A study of Mus musculus with 2 samples.

Results

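The 9 MHC class II antigen presentation genes *H2-Aa*, *H2-Ab1*, *H2-Eb1*, *H2-DMa*, *H2-DMb1*, *H2-DMb2*, *Cd74*, *Ciita* and *Ctss* were taken by their symbols from an mRNA-seq table of 18159 genes, and all 9 were found in it. The table holds 1 library of jejunal tunica muscularis, the outer muscle coat of the small intestine, from *Dnmt1*-WT mice and 1 from *Dnmt1*-KO mice, both aged 15 days on a C57BL/6 background. Mice of both genotypes carry smMHC Cre-eGFP/+, a transgene that makes Cre recombinase and eGFP under the *Myh11* promoter and so in smooth muscle cells. *Dnmt1*-KO mice also carry floxed *Dnmt1* alleles, so that the maintenance DNA methyltransferase is removed from smooth muscle while other cells of the wall keep the gene. The strain label of both samples reads Dnmt1lox/lox and the description label of both names the knockout. The genotypes used here are those of the titles and the genotype labels. The study sequenced RNA from males and females of each genotype, and how animals were combined in a library is not given in the sources used here. *Dnmt1* itself stood at 11.58 FPKM in *Dnmt1*-WT against 7.58 FPKM in *Dnmt1*-KO. FPKM divide the fragments of a gene by its transcript length and by the size of the library, so levels can be set side by side between genes. With 1 library per genotype there is no replicate check, so the values below are those of these libraries and no test was made.

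MHC class II molecules display peptides of endocytosed proteins to CD4+ T cells. An alpha and a beta chain pair in the endoplasmic reticulum around the invariant chain, which is encoded by *Cd74*, blocks the groove and directs the complex to endosomes. There cathepsin S, the product of *Ctss*, trims the invariant chain down to a short peptide, and H2-DM, a dimer of the *H2-DMa* product with a beta chain from *H2-DMb1* or *H2-DMb2*, exchanges that peptide for others. The genes are switched on together by the transactivator CIITA, which does not bind DNA itself but is recruited by RFX, CREB and NF-Y proteins sitting on the X and Y boxes of the promoters. Dendritic cells, B cells and activated macrophages are the usual class II cells, and interferon gamma can induce the genes in others.

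The X and Y boxes are what the class II promoters share, and the windows of 4 members are shown because the letters can be read in them. Each runs 5′ to 3′ on the strand of its gene, from 250 bases before to 50 bases after the start site, as given by RefSeq on GRCm38.p6. Capitals mark the X1 box core AACNGATG, the X2 core TGACG and the Y box core ATTGG with its longer form CTGATTGG, which contains ATTGG, on either strand.
H2-Eb1, chr17:34305617-34305916, plus strand: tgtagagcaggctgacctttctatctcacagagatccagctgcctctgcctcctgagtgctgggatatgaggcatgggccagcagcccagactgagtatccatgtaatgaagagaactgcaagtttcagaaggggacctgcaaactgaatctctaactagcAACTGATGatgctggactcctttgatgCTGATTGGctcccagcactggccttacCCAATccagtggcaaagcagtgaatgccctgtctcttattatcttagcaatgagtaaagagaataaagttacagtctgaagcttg
H2-DMb1, chr17:34152941-34153240, plus strand: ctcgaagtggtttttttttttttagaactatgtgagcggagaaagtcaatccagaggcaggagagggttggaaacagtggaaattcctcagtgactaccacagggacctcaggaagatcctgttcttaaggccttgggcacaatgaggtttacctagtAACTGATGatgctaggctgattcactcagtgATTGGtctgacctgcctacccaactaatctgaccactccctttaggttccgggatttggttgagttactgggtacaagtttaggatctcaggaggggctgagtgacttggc
H2-DMb2, chr17:34144999-34145298, plus strand: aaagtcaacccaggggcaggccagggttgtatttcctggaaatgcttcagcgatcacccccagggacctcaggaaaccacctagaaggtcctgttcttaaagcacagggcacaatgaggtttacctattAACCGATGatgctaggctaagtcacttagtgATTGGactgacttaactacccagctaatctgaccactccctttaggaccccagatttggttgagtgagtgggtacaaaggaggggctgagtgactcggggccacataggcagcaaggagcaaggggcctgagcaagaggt
H2-Aa, chr17:34287774-34288073, minus strand: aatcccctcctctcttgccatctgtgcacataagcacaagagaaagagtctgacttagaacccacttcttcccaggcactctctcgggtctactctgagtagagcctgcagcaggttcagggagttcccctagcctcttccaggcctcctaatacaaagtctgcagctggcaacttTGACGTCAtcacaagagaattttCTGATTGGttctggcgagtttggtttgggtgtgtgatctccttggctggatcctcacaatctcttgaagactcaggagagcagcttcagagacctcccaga

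In *H2-Eb1* the X1 core began 89 bases and the Y core 59 bases before the start site. In *H2-DMb1* they began 92 and 61 bases before it, and in *H2-DMb2* 121 and 90 bases before it, so that the first bases of both boxes lay 30 or 31 bases apart in each of the 3. *H2-Aa* held no AACNGATG in its window. Its Y core began 48 bases before the start site, and upstream of it TGACG on the strand of the gene at 74 bases and on the other strand at 71 bases overlapped into a palindrome. An X1 core followed by a Y core at 30 or 31 bases, a spacing chosen after these windows were seen, was found in 5 of the 32851 promoter windows, or 0.0152%. Those 5 belonged to *H2-Eb1*, *H2-DMb1*, *H2-DMb2*, the class II beta chain gene *H2-Eb2* and *BC051142*, which lies in the same stretch of chromosome 17. *H2-DMb1* and *H2-DMb2* are related copies, as are *H2-Eb1* and *H2-Eb2*, so these windows are not independent of each other. Taken alone the letters are common. ATTGG was in 37.4% of all windows, CTGATTGG in 4.10%, AACNGATG in 2.32% and TGACG in 20.8%. Windows of 6 of the 9 members were searched. No window was used for *H2-Ab1* or *Ciita*. Member windows on chromosome 18 were left out of this search, and so *Cd74*, the most abundant member, was not examined. The *Ctss* window held an X1 core 207 bases before the start site and no Y core, and of the 2 *H2-DMa* windows 1 held ATTGG, 198 bases before its start site. *H2-DMa* has 8 transcripts in GENCODE M21, and start sites other than those of these 2 windows were not searched. The interferon gamma activated sequence TTCNNNGAA, in 8.30% of all windows, was found in the *H2-DMb2* window among the member windows searched. These matches describe letters and not binding, which was not measured.

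**Figure D1:**
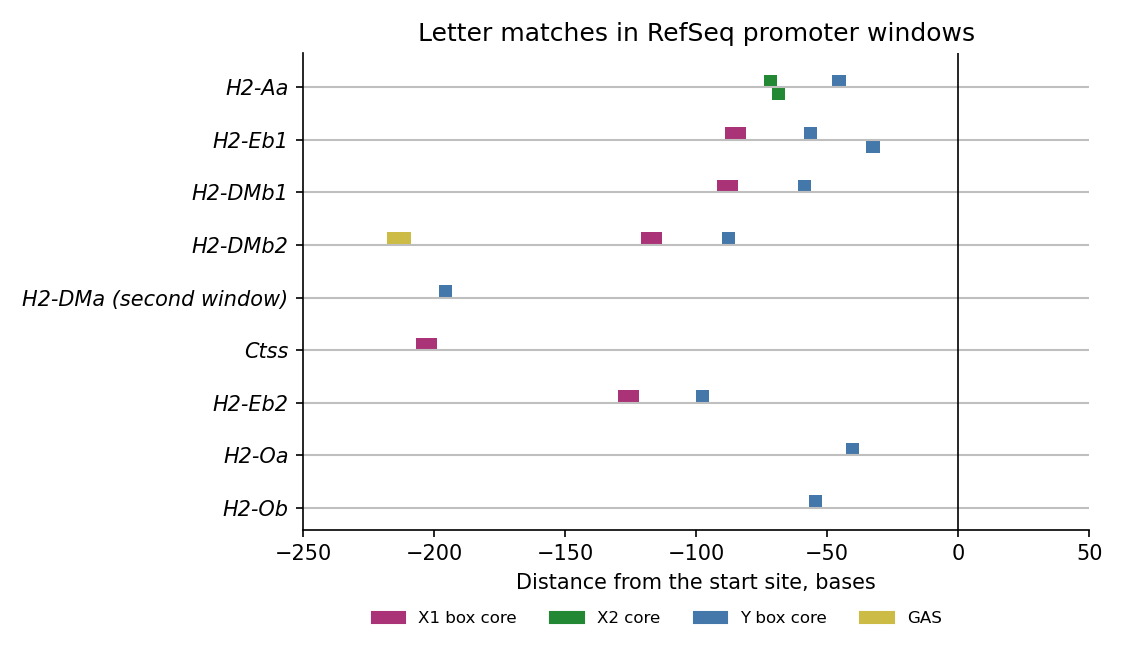
Letter matches in RefSeq promoter windows of 6 members and of *H2-Eb2*, *H2-Oa* and *H2-Ob*, by distance in bases from the start site. Boxes above a line lie on the strand of the gene and boxes below it on the other strand. In *H2-Eb1*, *H2-DMb1*, *H2-DMb2* and *H2-Eb2* the X1 core stands 30 or 31 bases before the Y core. Of the 2 *H2-DMa* windows the one with a match is drawn.

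Each of the 9 members had its higher level in *Dnmt1*-KO. All 9 were at least doubled, where 11.8% of the 16102 genes above 0 in both libraries were, and all 9 reached a plain ratio of 4, where 4.25% of those genes did. *H2-DMb2* and *Ciita*, both under 1 FPKM, had ratios of 3.91 and 3.80 with 0.1 FPKM added to each value and of 1.59 and 1.61 with 1 FPKM added, so their places in both counts depend on how low values are treated. The median log2 ratio of FPKM + 0.1 over the 9 members was 2.94, beside 0.00 over all genes in the table. The median of the plain ratios was 8.21, and the ratios ran from 4.97 for *Ctss* to 19.0 for *H2-Ab1*. The members were chosen with these values known, so the counts describe them only. The gene ontology lists that the study drew from these libraries also name most of the members, which is therefore not independent evidence of their direction. In RNA from whole tissue, a change in the number of cells that make a transcript and a change in transcript per cell cannot be told apart.

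**Figure D2:**
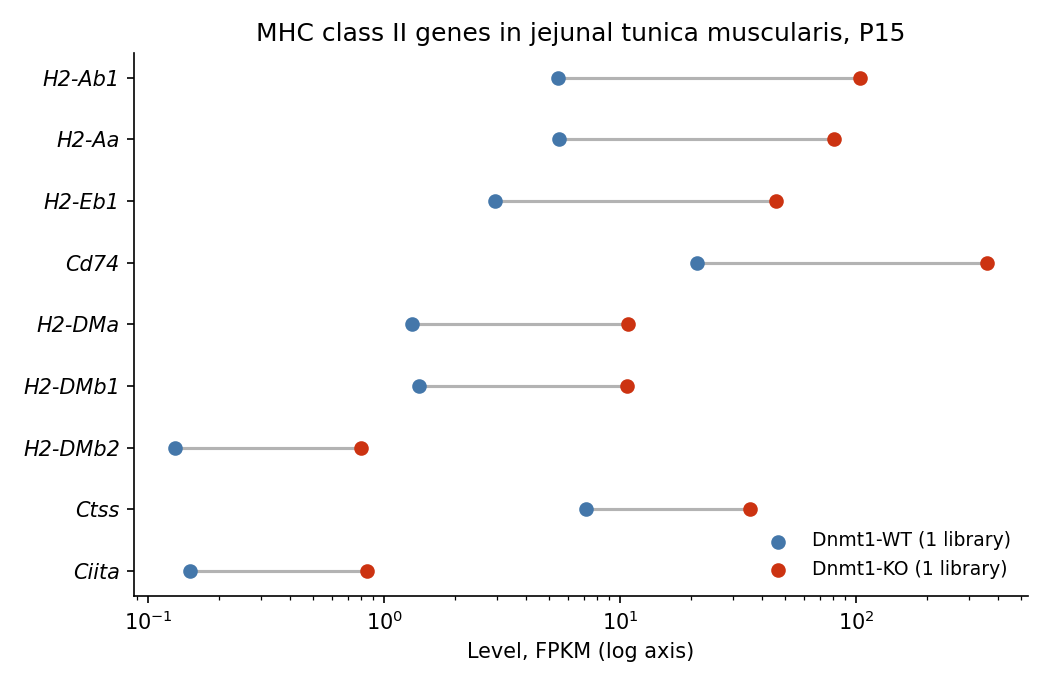
Level in FPKM, on a log axis, of the 9 members for the *Dnmt1*-WT (blue) and the *Dnmt1*-KO library (red), with a grey line joining the values of a gene. Each point is 1 library. *Cd74* ends highest at 357.75 FPKM, and *H2-DMb2* and *Ciita* stay under 1 FPKM in both libraries.

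The peptide-binding chains had 3 of the 4 highest ratios among the members. *H2-Ab1*, the beta chain of I-A, on chromosome 17 (chr17:34257689-34269419, plus strand, GENCODE M21 on GRCm38), was at 5.46 FPKM in *Dnmt1*-WT and 103.59 FPKM in *Dnmt1*-KO, a ratio of 19.0. *H2-Aa*, the alpha chain that pairs with it (chr17:34282744-34287823, minus strand), was at 5.49 FPKM in *Dnmt1*-WT and 80.52 FPKM in *Dnmt1*-KO, a ratio of 14.7. *H2-Eb1*, the beta chain of I-E (chr17:34305867-34316674, plus strand), was at 2.94 FPKM in *Dnmt1*-WT and 45.84 FPKM in *Dnmt1*-KO, a ratio of 15.6. Levels of both I-A chains were nearly equal in the *Dnmt1*-WT library, at 1.01 *H2-Aa* per *H2-Ab1*, against 0.777 in *Dnmt1*-KO. *H2-Eb1* stood at 0.538 of the *H2-Ab1* level in *Dnmt1*-WT and 0.443 in *Dnmt1*-KO. *H2-Ea*, the alpha chain partner of *H2-Eb1*, has no row in the table and was not analysed here. C57BL/6 mice are known to carry a defective *H2-Ea* and to show no I-E at the cell surface.

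*Cd74*, on chromosome 18, was the most abundant of the 9 in both libraries. It was at 21.19 FPKM in *Dnmt1*-WT and 357.75 FPKM in *Dnmt1*-KO, a ratio of 16.9. Ordered by level among genes above 0, it stood at place 3484 of 16632 in the *Dnmt1*-WT library and at place 189 of 17055 in the *Dnmt1*-KO library. *H2-Ab1* went from place 8894 to place 661 and *H2-Aa* from place 8868 to place 854. *Cd74* and the chains it guards kept nearly the same proportion. *Cd74* stood at 1.53 times the summed level of *H2-Aa*, *H2-Ab1* and *H2-Eb1* in *Dnmt1*-WT and 1.56 times in *Dnmt1*-KO. The sum of those 3 chains was 13.9 FPKM in *Dnmt1*-WT and 230 FPKM in *Dnmt1*-KO, a ratio of 16.6. CD74 is also a receptor for the cytokine MIF. Of the 5 other genes listed for that role, *Cxcr2* alone was at least doubled, with 0.19 FPKM in *Dnmt1*-WT and 0.42 FPKM in *Dnmt1*-KO, and *Mif* itself was at 153.22 and 178.79 FPKM.

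The peptide exchange genes had lower ratios than the chains they load. *H2-DMa*, the alpha chain of H2-DM (chr17:34119541-34139101, plus strand), was at 1.31 FPKM in *Dnmt1*-WT and 10.75 FPKM in *Dnmt1*-KO, a ratio of 8.21. *H2-DMb1* (chr17:34153072-34160230, plus strand) was at 1.4 FPKM in *Dnmt1*-WT and 10.7 FPKM in *Dnmt1*-KO, a ratio of 7.64. The alpha chain and this beta chain were matched in both libraries, at 0.936 *H2-DMa* per *H2-DMb1* in *Dnmt1*-WT and 1.0 in *Dnmt1*-KO. *H2-DMb2* (chr17:34143307-34151555, plus strand) was at 0.13 FPKM in *Dnmt1*-WT and 0.8 FPKM in *Dnmt1*-KO, a ratio of 6.15, and was thus the minor beta chain gene in both. The peptide-binding chains together stood at 10.6 times the *H2-DMa* level in *Dnmt1*-WT and 21.4 times in *Dnmt1*-KO. *H2-DMb1* and *H2-DMb2* are near copies. Their longest coding transcripts were 87.7% identical over 1144 aligned positions, and 27.2% of the 50-base stretches of *H2-DMb1* also occur in another gene, which was *H2-DMb2*. Of the stretches of *H2-DMb2*, 29.5% also occur in other genes, 25.2% of all its stretches in *H2-DMb1* and a further 4.32% only in others among the 165 genes matched. Reads from such stretches cannot be assigned to 1 gene by sequence, which bears most on the low values of *H2-DMb2*. Summed, both genes were at 1.53 FPKM in *Dnmt1*-WT and 11.5 FPKM in *Dnmt1*-KO, a ratio of 7.52. Exons of *H2-DMa* share 360 bases with *Brd2* on the other strand. *Brd2* was at 60.75 FPKM in *Dnmt1*-WT and 56.62 FPKM in *Dnmt1*-KO, so it was not higher where *H2-DMa* was. The deposited values are not stated to use strand, so reads from the shared bases cannot be told apart.

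H2-DO, which restrains H2-DM, is made from *H2-Oa* and *H2-Ob*. *H2-Oa* was at 0.04 FPKM in *Dnmt1*-WT and 1.09 FPKM in *Dnmt1*-KO, and *H2-Ob* at 0.25 and 1.12 FPKM. The sum of both genes was 0.102 of the H2-DM sum in *Dnmt1*-WT and 0.0993 in *Dnmt1*-KO, so both sums stood in nearly the same proportion. A level of 0.04 FPKM is close to 0.03 FPKM, the lowest value above 0 in either library, and the ratio of *H2-Oa* rests on it. *H2-Eb2* was listed at 0 in *Dnmt1*-WT and reached 0.08 FPKM in *Dnmt1*-KO.

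*Ctss* (chr3:95526786-95556403, plus strand) had the lowest ratio of the 9. It was at 7.16 FPKM in *Dnmt1*-WT and 35.59 FPKM in *Dnmt1*-KO, a ratio of 4.97. In *Dnmt1*-WT it was above each peptide-binding chain, and in *Dnmt1*-KO below all 3. None of the 10 other genes listed for endosomal proteolysis was at least doubled. Their ratios ran from 0.845 for *Sppl2a*, the intramembrane protease that clears the invariant chain stub, to 1.97 for *Ctsh*, and their median was 1.34. In *Dnmt1*-WT their levels ran from 12.75 FPKM for *Sppl2a* to 427.06 FPKM for *Cst3*. *Cst3*, the inhibitor cystatin C, was at 427.06 FPKM in *Dnmt1*-WT and 620.06 FPKM in *Dnmt1*-KO, and *Ctsd* at 184.78 and 213.14 FPKM. *Ifi30*, the thiol reductase that unfolds antigens in endosomes, was at 49.96 and 70.69 FPKM. *Ctsk*, which neighbours *Ctss* on chromosome 3, was at 22.23 and 23.17 FPKM.

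*Ciita* (chr16:10480059-10528418, plus strand) was among the least abundant of the 9 in both libraries. It was at 0.15 FPKM in *Dnmt1*-WT and 0.85 FPKM in *Dnmt1*-KO, a ratio of 5.67. The summed peptide-binding chains stood at 92.6 times its level in *Dnmt1*-WT and 271 times in *Dnmt1*-KO. Its exons share 329 bases with *Dexi* on the other strand, which was at 17.91 FPKM in *Dnmt1*-WT and 15.65 FPKM in *Dnmt1*-KO. *Clec16a* and *Socs1*, the listed genes that follow *Ciita* on the chromosome, had ratios of 0.938 and 1.62, and *Tvp23a* and *Nubp1* before it had 1.73 and 1.67.

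Genes for the proteins that hold CIITA at the promoter were not among those with higher levels. All 7 genes listed for the X and Y boxes, *Rfx5*, *Rfxap*, *Rfxank*, *Nfya*, *Nfyb*, *Nfyc* and *Creb1*, were lower in *Dnmt1*-KO, with ratios from 0.610 for *Creb1* to 0.926 for *Rfxank*, and stayed below 1 under each of the 5 scalings tried. Of the 16102 genes above 0 in both libraries, 7910 had a ratio below 1, so a lower level is common, and several of the 7 ratios lie near 1. *Rfx5*, which forms the RFX complex with *Rfxap* and *Rfxank*, was at 5.57 FPKM in *Dnmt1*-WT and 4.45 FPKM in *Dnmt1*-KO. None of the 7 was at most halved, as 4.98% of genes were. Factors of myeloid cells and of the interferon response had higher levels in *Dnmt1*-KO. *Spi1*, the myeloid factor PU.1, was at 2.5 FPKM in *Dnmt1*-WT and 10.36 FPKM in *Dnmt1*-KO, a ratio of 4.14. *Irf4* was at 0.23 and 1.04 FPKM and *Irf8* at 3.76 and 7.76 FPKM. *Irf1*, which takes part in the induction of *Ciita*, was at 12.04 and 21.44 FPKM.

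Interferon gamma, which induces *Ciita*, was itself low, with *Ifng* listed at 0 in *Dnmt1*-WT against 0.1 FPKM in *Dnmt1*-KO. Its receptor chains had ratios of 1.3 for *Ifngr1* and 1.43 for *Ifngr2*, and *Jak2* of 0.609. Of 13 genes known to respond to it, 6 were at least doubled, 1 more was listed at 0 in *Dnmt1*-WT only, and none was at most halved. *Cxcl10*, a chemokine for T cells, was at 0.59 FPKM in *Dnmt1*-WT and 6.51 FPKM in *Dnmt1*-KO, a ratio of 11.0. *Cxcl9*, of the same family, was listed at 0 in *Dnmt1*-WT against 3.06 FPKM in *Dnmt1*-KO. The GTPase gene *Iigp1* was at 1.31 and 10.24 FPKM, a ratio of 7.82, and *Gbp2*, the most abundant of the list, at 22.62 and 41.13 FPKM. *Gbp5* was lower, at 4.37 and 3.59 FPKM. The response list had a median ratio of 2.40, beside 8.21 for the members.

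Class I genes are driven by NLRC5, a relative of CIITA, and display peptides of cytosolic proteins. Of 13 genes listed for the class I pathway 8 were at least doubled, with a median ratio of 3.76. *H2-K1*, a class I heavy chain, was at 40.39 FPKM in *Dnmt1*-WT and 322.91 FPKM in *Dnmt1*-KO, a ratio of 7.99. *B2m*, the light chain, was the most abundant, at 415.79 and 1561.3 FPKM, and *Nlrc5* had the highest ratio, at 0.12 and 1.54 FPKM. The general folding genes *Calr* and *Pdia3* and the trimming peptidase *Erap1* had ratios of 0.969, 0.986 and 0.945. *H2-Ab1* stood at 0.135 of the *H2-K1* level in *Dnmt1*-WT against 0.321 in *Dnmt1*-KO. Costimulation genes, which a presenting cell needs to activate T cells, did not reach a doubling in any of 6. *Cd86* came nearest, at 0.91 FPKM in *Dnmt1*-WT and 1.81 FPKM in *Dnmt1*-KO, *Cd80* was at 0.27 and 0.26 FPKM and *Cd40* at 3.28 and 3.48 FPKM. Of 8 genes for class II trafficking and turnover, the tetraspanin gene *Cd37* alone was at least doubled, at 0.23 and 1.98 FPKM. *March1*, the ubiquitin ligase that removes class II from the surface, was at 0.73 and 1.42 FPKM, and its relative *March8* at 15.81 and 11.35 FPKM.

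**Figure D3:**
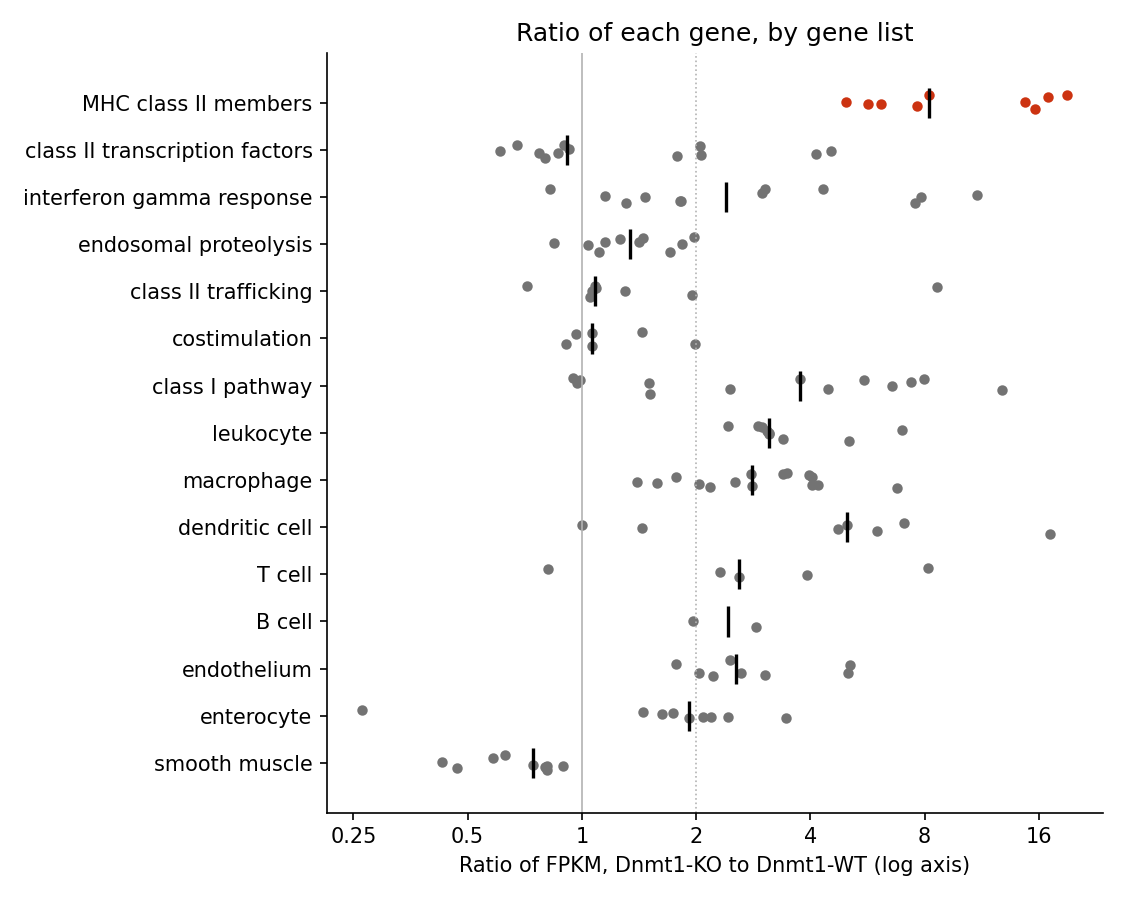
Ratio of FPKM in *Dnmt1*-KO to *Dnmt1*-WT, on a log axis, for each gene above 0 in both libraries, by gene list. Black bars are medians, the solid line marks a ratio of 1 and the dotted line a ratio of 2. The members (red) run from 4.97 to 19.0, the leukocyte list from 2.43 to 6.99 and the smooth muscle list from 0.427 to 0.893.

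Position along chromosome 17 was next set beside the ratios. The 6 members there span 197.1 kb, and the table lists 22 genes within them and 100 kb on either side. All 6 members and 3 of the 4 class I pathway genes between them were at least doubled, whereas of the 9 genes with no listed role in antigen presentation 1 was, with a median ratio of 1.05. That gene was *Btnl1*, at 1.06 FPKM in *Dnmt1*-WT and 2.38 FPKM in *Dnmt1*-KO. *Psmb8*, a subunit of the immunoproteasome, was at 5.87 and 43.13 FPKM, a ratio of 7.35, and *Tap2*, a chain of the peptide transporter, at 11.67 and 17.62 FPKM, a ratio of 1.51. *Tap1*, the other chain, had a ratio of 4.46. The other 8 of these 9 genes had ratios between 0.727 and 1.59. *Ring1* was at 15.32 and 16.01 FPKM, *Rxrb* at 19.87 and 16.41 FPKM and *Btnl2* at 1.61 and 1.17 FPKM. On chromosome 18 the listed neighbours of *Cd74* had ratios of 0.932 for *Ndst1*, 1.52 for *Rps14*, 0.788 for *Tcof1* and 1.41 for *Arsi*. None of these 4 was at least doubled.

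**Figure D4:**
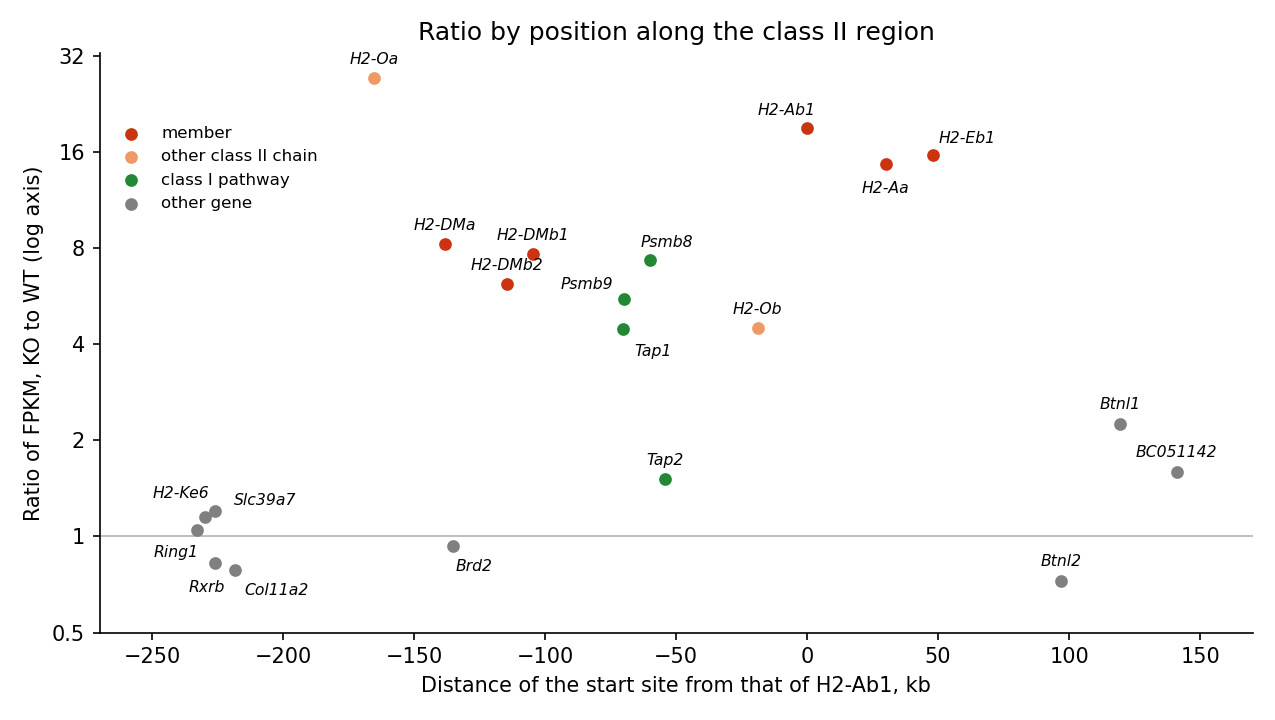
Ratio of FPKM in *Dnmt1*-KO to *Dnmt1*-WT, on a log axis, for genes on chromosome 17 around the class II members, by distance in kb of their start sites from that of *H2-Ab1*. Members are red, other class II chains orange, class I pathway genes green and other genes grey. *Brd2*, whose start lies between those of *H2-Oa* and *H2-DMb2*, has a ratio of 0.932 beside 27.2 for *H2-Oa* and 6.15 for *H2-DMb2*. *H2-Eb2*, at 0 in *Dnmt1*-WT, has no ratio and is not drawn.

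The tunica muscularis holds resident macrophages and other cells besides smooth muscle. Leukocyte and macrophage markers had higher levels in *Dnmt1*-KO, as the members did. Of 10 leukocyte genes 9 were at least doubled and *Cytip* was listed at 0 in *Dnmt1*-WT only, and their summed level was 43.6 FPKM in *Dnmt1*-WT and 141 FPKM in *Dnmt1*-KO. *Ptprc*, the leukocyte antigen CD45, was at 0.8 and 2.71 FPKM, a ratio of 3.39. The ratios of 6 of the 9 members were above the highest of that list, 6.99 for *Itgb2*, and all 9 were above its median of 3.11. *Cd74* stood at 26.5 times the *Ptprc* level in *Dnmt1*-WT and 132 times in *Dnmt1*-KO. Among 15 macrophage genes 12 were at least doubled, none was at 0, and the sum was 163 FPKM in *Dnmt1*-WT and 547 FPKM in *Dnmt1*-KO. *C1qa*, a complement gene of tissue macrophages, was at 31.57 and 125.26 FPKM, whereas *Csf1r*, the macrophage growth factor receptor, was at 14.79 and 26.16 FPKM. The median macrophage ratio was 2.80 and the highest 6.77, for *Siglec1*, which 6 members exceeded. By flow cytometry of this tissue at the same age, the study found a larger share of CD45+ cells in *Dnmt1*-KO than in *Dnmt1*-WT. That is a measure of cells, and the ratios here are of RNA. The part of these cells in the member values was not tested.

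Dendritic cell markers were low, with a median ratio above those of the leukocyte and macrophage lists. Of 10 genes 5 were at least doubled and 3, *Xcr1*, *Cd209a* and *Ccr7*, were listed at 0 in *Dnmt1*-WT only. Their sum was 4.10 FPKM in *Dnmt1*-WT and 17.4 FPKM in *Dnmt1*-KO. *Itgax*, the integrin CD11c, was at 0.07 and 1.2 FPKM, a ratio of 17.1, and *Clec10a* at 1.05 and 7.42 FPKM, a ratio of 7.07. *Zbtb46*, a factor of classical dendritic cells, was at 1.93 and 2.78 FPKM, and *Siglech*, a marker of plasmacytoid cells, at 0.11 FPKM in both. The median ratio of the list was 5.0, over the 7 genes above 0 in both libraries, and its median log2 ratio of FPKM + 0.1 was 2.03, beside 2.94 for the members. By plain ratios 1 of the 9 members, *H2-Ab1*, was above *Itgax*, and 8 were above the median of the list. The *Itgax* ratio rests on 0.07 FPKM in *Dnmt1*-WT, near the lowest value above 0, which was 0.03 FPKM. B cell markers were sparse. Of 8 genes *Pax5* was at 0 in both libraries, 5 were at 0 in *Dnmt1*-WT only, and the sum was 1.07 FPKM in *Dnmt1*-WT and 3.42 FPKM in *Dnmt1*-KO. *Cd79b*, the most abundant of them in *Dnmt1*-KO, was at 0.52 and 1.5 FPKM. Genes of innate lymphoid cells of type 3, some of which present antigen on class II, had a median ratio of 1.0 over the 3 above 0 in both libraries and a median log2 ratio of FPKM + 0.1 of 0.50 over 4. Of the 4 in the table *Il7r* alone was at least doubled, at 0.04 and 0.35 FPKM, *Il23r* was at 0.05 FPKM in both libraries and *Ncr1* was at 0 in *Dnmt1*-WT only.

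T cells that recognise peptides on class II carry CD4. *Cd4*, which macrophages and dendritic cells can also make, was at 0.29 FPKM in *Dnmt1*-WT and 2.37 FPKM in *Dnmt1*-KO, a ratio of 8.17. Of the 9 T cell genes 4 were at least doubled and 4, among them *Cd3d* and *Cd3e*, were at 0 in *Dnmt1*-WT only, and their sum was 2.38 FPKM in *Dnmt1*-WT and 7.69 FPKM in *Dnmt1*-KO. Neutrophil and mast cell genes were also low, with sums of 1.46 and 7.61 FPKM over 5 neutrophil genes, of which 3 were at least doubled and *S100a8* was at 0 in *Dnmt1*-WT only, and of 0.0600 and 4.99 FPKM over 6 mast cell genes, of which 5 were at 0 in *Dnmt1*-WT. *Cpa3*, the mast cell carboxypeptidase, was at 0.06 and 1.15 FPKM, a plain ratio of 19.2 that no member exceeded. That ratio rests on a *Dnmt1*-WT value close to 0.03 FPKM, the lowest above 0 in either library.

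Lists for cells other than leukocytes differed in how many genes were at least doubled. Over all genes above 0 in both libraries the share was 11.8%. Among 8 endothelial genes 7 were at least doubled, with sums of 54.7 FPKM in *Dnmt1*-WT and 149 FPKM in *Dnmt1*-KO, and *Pecam1* was at 15.76 and 38.84 FPKM. Of 9 enterocyte genes, which mark epithelium of the mucosa, 4 were at least doubled and *Sis* was at most halved. Their sums were 327 and 726 FPKM, led by *Apoa4* at 208.37 and 433.8 FPKM. Of 4 enteric glia genes *Gfap* alone was at least doubled, at 4.78 and 35.36 FPKM, and the sums were 59.2 and 88.9 FPKM. Among 5 fibroblast genes *Col1a1* alone was at least doubled, at 700.41 and 1517.78 FPKM, *Pdgfra* was at 68.95 and 40.72 FPKM, and the sums were 2497 and 3921 FPKM. Markers of the labelled tissue had the highest summed level of all lists. All 9 smooth muscle genes were present and all were lower in *Dnmt1*-KO, with sums of 16713 and 12116 FPKM, *Acta2* leading at 5408.13 and 4016.24 FPKM, and *Myh11* and *Smtn* at most halved. The part of these cell types in the member values was not tested.

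The 5 genes outside every list, at 10 FPKM or more in *Dnmt1*-KO, whose log2 ratio of FPKM + 0.1 was nearest to the members' median of 2.94 were *Dpep1*, *Tnfrsf12a*, *Ccrn4l*, *Defa22* and *Mpeg1*, out of 6308 candidates over these 2 libraries. *Mpeg1*, a perforin-like gene of macrophages, was at 1.34 FPKM in *Dnmt1*-WT and 10.05 FPKM in *Dnmt1*-KO. *Defa22*, a defensin gene of Paneth cells, was at 3.9 and 33.13 FPKM. *Tnfrsf12a*, the receptor of TWEAK, was at 6.73 and 55.43 FPKM. Likeness here is of 1 ratio only and says nothing of shared control. Among the 6398 genes above 0 in both libraries and at 10 FPKM or more in *Dnmt1*-KO, 31 had a ratio at or above the 14.7 of *H2-Aa*. *H2-Aa*, *H2-Ab1*, *H2-Eb1* and *Cd74* are among them because the cut-off is the lowest ratio of these 4. *H2-Aa*, *H2-Ab1* and *H2-Eb1* were under 10 FPKM in *Dnmt1*-WT and passed the filter through *Dnmt1*-KO only. The count thus places these ratios and says nothing of the members as a group.

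The number of transcript variants found by the authors was the same in both libraries for 6 members. It was 1 in *Dnmt1*-WT and 2 in *Dnmt1*-KO for *H2-Eb1* and for *Ciita*, and 2 and 3 for *H2-DMa*.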

How the data were processed

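The mRNA-seq of *Dnmt1*-WT and *Dnmt1*-KO jejunal tunica muscularis, 1 library each, was read from the table deposited by the authors. TruSeq RNA libraries were mapped to GRCm38/mm10, and the submitters' processing notes name TopHat 1.4.1 and Cufflinks 2.0.2. Per the file headers the authors deposited FPKM per gene and library, the number of transcript variants, and their own ratio of both libraries, which was not used. No column of values lacked a sample. Reads per gene are not in the files used here, so depth and counting error are unknown and no interval is given.

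Members and gene lists were chosen with earlier results of these data known. Ratios and median ratios are plain FPKM ratios over genes above 0 in both libraries, and median log2 ratios use FPKM + 0.1 over all genes of a list in the table. Because each genotype has 1 library, no test was made. A ratio of 2 or more was called at least doubled and 0.5 or less at most halved. Named genes were the 9 members, *Dnmt1*, the highest, lowest, most abundant or functionally described genes of each list, listed neighbours on the chromosomes, genes whose exons overlap a member, and the 5 genes outside all lists nearest to the members' median. *Dexi* was named for its overlap after its values were seen. Positions, exon overlaps and shared stretches of 50 bases came from GENCODE M21, and promoter windows of 300 bases from RefSeq (GRCm38.p6). Letters were searched on both strands. Alternatives were 5 scalings between libraries, pseudocounts of 0.01 and 1, filters at 1 FPKM, summing *H2-DMb1* with *H2-DMb2*, thresholds of 1.5 and 4, and a threshold of 4 with FPKM + 0.1, added after the data were seen. Counting and scaling were tested on simulated data. Some genes of the lists are not reported here. Python 3.11.15, numpy 2.4.6, pandas 2.3.3, Biopython 1.88 and matplotlib 3.10.9 were used.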

Additional observations from a re-analysis of the deposited data

How the results depend on the processing

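The median log2 ratio of the members, 2.94, was 2.97 after setting the median log2 ratio of all genes to 0, with the upper quartile and with the trimmed mean, 2.84 with the FPKM sum and 2.85 with that sum without small RNA genes. It was 3.03 with a pseudocount of 0.01 and 2.35 with a pseudocount of 1, 3.85 over the 7 members at 1 FPKM or more in one library or in both, and 3.40 with *H2-DMb1* and *H2-DMb2* summed. The count of members at least doubled stayed at 9 under each scaling, at 0.01 and at thresholds of 1.5 and 4 on plain ratios. With FPKM + 0.1, an alternative chosen after seeing the data, 7 members reached a ratio of 4, and *H2-DMb2* at 3.91 and *Ciita* at 3.80 did not. It was 7 at a pseudocount of 1, where *H2-DMb2* and *Ciita* had ratios of 1.59 and 1.61, 7 under the filters and 8 with the *H2-DMb* genes summed. The scalings moved the log2 ratio of every gene by between -0.10 and 0.03. All 64 alternative values for single members stayed above 0 on the log2 scale. No paired analysis was possible because each genotype has 1 library, and for the same reason no library could be left out. Values near 0.03 FPKM, the lowest above 0 in the table, and ratios that rest on them are the least certain.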
